A study of Mus musculus with 6 samples.

Results

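Intestinal sodium, chloride, bicarbonate and sulfate transport was described here through 9 genes chosen by symbol: Slc9a3, Slc26a3, Slc26a6, Slc13a1, Slc26a2, Slc26a1, Cftr, Slc12a2 and Atp1b1. They are 9 of the 22180 genes for which the array annotation pairs a probe set with a single symbol, and each had 1 such probe set. RNA from the duodenum of 3 VDR-null and 3 wild-type mice, aged 10 weeks and on the C57Bl/6 strain background in both groups, had been hybridised to 1 whole-transcript array per sample. VDR-null animals lack the vitamin D receptor, per their label; which allele was targeted, the sex and the diet are not given here. Values are log2 signals, so a difference of 1 is a 2-fold difference, and arrays are called VDR-null or wild-type replicate 1, 2 and 3 after the sample titles.

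The duodenal epithelium both absorbs and secretes salt. Villus enterocytes take up sodium through apical sodium-hydrogen exchange coupled to chloride-bicarbonate exchange, and sulfate through sodium-sulfate cotransport. Crypt cells, and in the duodenum villus cells as well, secrete chloride and bicarbonate through the CFTR channel, fed from the blood side by a sodium-potassium-chloride cotransporter, while the sodium pump of the basolateral membrane drives both processes. The vitamin D receptor is a nuclear receptor that binds DNA with a retinoid X receptor, and in mouse kidney the sodium-sulfate cotransporter gene Slc13a1 is known to depend on it.

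Between the genotypes, the apical exchangers and the tested sulfate transporters averaged higher in VDR-null duodenum, as did the pump subunit Atp1b1. Cftr and Slc12a2 averaged lower, and none of these differences passed the test. Of the 9 genes, 8 were bright enough to be tested. Of these, 6 averaged higher in VDR-null duodenum (Slc9a3, Slc13a1, Slc26a6, Slc26a2, Slc26a3 and Atp1b1) and 2 averaged lower (Slc12a2 and Cftr). Their median log2 difference was 0.37, against -0.026 over the 13174 genes tested, of which 44.0% were higher in VDR-null duodenum. With limma and Benjamini-Hochberg adjustment over all tested genes, 0 of the 8 passed an adjusted p of 0.05, and 0 of all 13174 genes did so (0%). At an unadjusted p under 0.05 in limma, 0 of the 8 passed, against 689 of all tested genes (5.23%). In 0 of the 8 did the VDR-null and wild-type arrays separate without overlap, against 11.1% of all tested genes. These are values of bulk tissue, in which fewer cells of a type and less RNA per cell cannot be told apart.

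The arrays also varied within each genotype. Array medians lay between 5.15 and 5.19. The processing of the deposited values equalises the distributions of arrays, so these medians do not measure brightness before it. The first principal component of the tested genes carried 62.2% of the variance and had VDR-null replicate 1 and wild-type replicate 1 at its opposite ends. Scores on it ran from -34.6 to 9.63 over the VDR-null and from -4.86 to 34.6 over the wild-type arrays, so the genotypes overlapped. Many values below are also given without both replicate 1 arrays. Those arrays were picked from the same data, as the ends of this component. Leaving them out shrinks differences that follow the component, so that fit is no independent check. Vdr, the gene of the receptor, read 10.99, 10.86 and 10.85 in VDR-null duodenum, against 10.72, 10.95 and 11.11 in wild-type duodenum; where its probes lie relative to the targeted part is unknown here, so it checks no label. All 8 markers of proximal intestine on the list used were above the median of all values on all 6 arrays, among them the duodenal transcription factors Pdx1 and Gata4, and 6 of the 7 measured markers of distal intestine and colon were not.

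Upstream sequence is shown for 4 of the transporters, those of the 3 apical exchangers and of the apical channel Cftr. RefSeq promoter windows were found for 6 of the 9 genes (7 windows, build GRCm38.p6). Slc13a1, Slc26a2 and Slc12a2 had none, so their upstream sequence was not searched. For the genes shown, the 250 bases before the annotated start are printed 5′ to 3′ on the gene's strand. Capitals mark matches to either of 2 motifs on either strand: the nuclear receptor half-site AGGTCA, and CACCC, a box bound by Krüppel-like factors.
Slc9a3, chr13:74121163-74121412, plus strand: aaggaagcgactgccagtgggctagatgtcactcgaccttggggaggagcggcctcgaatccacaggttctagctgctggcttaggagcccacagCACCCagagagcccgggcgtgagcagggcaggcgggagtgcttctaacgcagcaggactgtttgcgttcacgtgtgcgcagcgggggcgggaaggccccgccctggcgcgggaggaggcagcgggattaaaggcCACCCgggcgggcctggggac
Slc26a3, chr12:31437969-31438218, plus strand: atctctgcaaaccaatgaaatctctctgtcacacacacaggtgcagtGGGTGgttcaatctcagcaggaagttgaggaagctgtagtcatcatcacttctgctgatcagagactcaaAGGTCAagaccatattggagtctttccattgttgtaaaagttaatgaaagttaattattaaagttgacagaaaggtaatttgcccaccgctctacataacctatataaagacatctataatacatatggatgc
Slc26a6, chr9:108853793-108854042, plus strand: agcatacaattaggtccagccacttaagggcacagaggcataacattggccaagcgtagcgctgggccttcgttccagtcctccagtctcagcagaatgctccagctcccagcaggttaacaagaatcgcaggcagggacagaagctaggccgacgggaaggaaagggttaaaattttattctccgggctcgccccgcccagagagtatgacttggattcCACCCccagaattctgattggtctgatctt
Cftr, chr6:18170437-18170686, plus strand: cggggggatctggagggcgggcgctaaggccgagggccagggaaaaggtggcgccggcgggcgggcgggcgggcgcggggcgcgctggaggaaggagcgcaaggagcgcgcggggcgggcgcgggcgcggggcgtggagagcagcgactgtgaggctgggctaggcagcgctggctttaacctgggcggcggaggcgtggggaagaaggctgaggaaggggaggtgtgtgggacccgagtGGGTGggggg

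The 4 windows differ widely in composition. G and C made up 76.4% of the Cftr window, 67.6% of that of Slc9a3, 53.2% of that of Slc26a6 and 38.8% of that of Slc26a3, against a median of 52.4% over 32851 windows. The dinucleotide CG occurred 30 times before Cftr and 1 time before Slc26a3. The vitamin D receptor's direct repeat, a pair of half-sites with 3 bases between, was searched for by its consensus on both strands and matched in 0 of the 7 member windows and in 0.0396% of all windows. The single half-site AGGTCA occurred in 1 of the 7, at bases 133 to 128 before the start of Slc26a3, and in 14.0% of all windows. CACCC occurred in all 7 and in 52.0% of all windows. TTTATG, a core letter run bound by the intestinal factor Cdx2, and CAAAGTCCA, a form of the Hnf4a site, were in 0 of the 7, against 10.8% and 0.384% of all windows; these matches describe letters in short windows only.

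Slc9a3 encodes NHE3, the apical sodium-hydrogen exchanger that carries most electroneutral sodium absorption. Its log2 signal was 10.04, 9.89 and 9.01 on VDR-null replicates 1 to 3 and 7.49, 9.59 and 8.54 on wild-type replicates 1 to 3. The VDR-null arrays included the highest pair, but wild-type replicate 2 lay above VDR-null replicate 3 and the groups overlapped. The mean was 9.65 ± 0.55 in VDR-null and 8.54 ± 1.05 in wild-type duodenum (SD, n = 3 each), and the log2 difference of 1.10 ± 0.53 (SE) amounts to 2.15-fold. Its 95% confidence interval ran from -0.15 to 2.36, or from 1.11-fold lower to 5.13-fold higher, with a limma adjusted p of 0.683. This was a larger difference in size than that of 99.6% of tested genes, and its standard deviation within genotypes, 0.84, was also larger than that of 99.0% of them. The difference was 0.58 with wild-type replicate 1 left out and 1.63 with wild-type replicate 2 left out. Without both replicate 1 arrays it was 0.38 (interval -0.74 to 1.51).

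Slc26a3 encodes the apical chloride-bicarbonate exchanger known as DRA, whose loss in humans causes congenital chloride diarrhoea. It read 10.52, 10.65 and 10.20 in VDR-null duodenum, against 9.39, 10.82 and 10.19 in wild-type duodenum. The highest and the lowest array were both wild-type, and the other wild-type array lay next to VDR-null replicate 3. The difference of 0.33 ± 0.34 (SE; interval -0.48 to 1.13; limma adjusted p = 0.744) was -0.046 with wild-type replicate 1 left out and -0.078 without both replicate 1 arrays.

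Slc26a6 encodes the apical exchanger PAT1, which in mouse duodenum exchanges chloride for bicarbonate and oxalate. Its VDR-null arrays gave 11.56, 10.93 and 10.36, and its wild-type arrays 9.39, 10.92 and 10.49. VDR-null replicate 1 stood highest and wild-type replicate 1 lowest, with the remaining 4 arrays within the span of 10.36 to 10.93 and mixed in order. The difference was 0.68 ± 0.44 (SE), or 1.60-fold, with an interval of -0.37 to 1.74 and a limma adjusted p of 0.683. Without both replicate 1 arrays it was -0.062 (interval -0.69 to 0.56), and with 1 array left out it was 0.38 when this was VDR-null replicate 1 and 0.24 when it was wild-type replicate 1.

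Slc13a1 encodes NaS1, the apical sodium-sulfate cotransporter. It read 12.17, 11.77 and 11.24 in VDR-null duodenum, against 9.50, 11.51 and 11.11 in wild-type duodenum. The order from the top was VDR-null 1 and 2, wild-type 2, VDR-null 3, wild-type 3 and wild-type 1, the same as for Slc9a3. The mean was 11.73 ± 0.47 in VDR-null and 10.71 ± 1.06 in wild-type duodenum (SD, n = 3 each). The log2 difference of 1.02 ± 0.52 (SE), or 2.02-fold, had an interval of -0.21 to 2.24 and a limma adjusted p of 0.683. With wild-type replicate 1 left out it was 0.41, with VDR-null replicate 1 left out 0.80, and with neither array in the fit 0.19 (interval -0.40 to 0.78).

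Slc26a2 encodes the sulfate-chloride exchanger whose loss causes diastrophic dysplasia in humans. It read 9.42, 9.27 and 8.89 in VDR-null duodenum, against 8.57, 9.07 and 8.70 in wild-type duodenum, so that a single wild-type array, replicate 2, lay among the VDR-null ones. The arrays were again ordered as for Slc9a3, over a range of 0.85 in place of the 2.55 of Slc9a3. The difference was 0.41 ± 0.18 (SE; interval -0.025 to 0.85; limma adjusted p = 0.683), and 0.19 without both replicate 1 arrays. Slc26a1, the basolateral sulfate-anion exchanger best known from liver and kidney, stayed below the median of all values, 5.17, on all 6 arrays and was not tested. It read 4.89, 4.88 and 4.52 in VDR-null duodenum, against 4.68, 4.73 and 4.70 in wild-type duodenum, values at which background limits the signal.

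Of the secretory genes, Slc12a2 encodes NKCC1, the basolateral sodium-potassium-chloride cotransporter that loads crypt cells with chloride. It read 10.50, 10.75 and 11.18 in VDR-null duodenum, against 11.53, 10.98 and 11.44 in wild-type duodenum. VDR-null replicate 1 was lowest and wild-type replicate 1 highest, and VDR-null replicate 3 lay above wild-type replicate 2. The difference of -0.50 ± 0.21 (SE), 1.42-fold lower in VDR-null, had an interval of -1.01 to 0.0043 and a limma adjusted p of 0.683. Without both replicate 1 arrays it was -0.24 (interval -0.81 to 0.32).

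Cftr encodes the cAMP-activated chloride and bicarbonate channel of the apical membrane. It read 9.79, 9.87 and 10.12 in VDR-null duodenum, against 10.20, 10.09 and 10.32 in wild-type duodenum. The groups met only where VDR-null replicate 3 passed wild-type replicate 2 by a small margin. The difference was -0.27 ± 0.12 (SE), 1.21-fold lower in VDR-null, with an interval of -0.56 to 0.0099 and a limma adjusted p of 0.683. It was -0.28 with wild-type replicate 1 left out and -0.21 without both replicate 1 arrays (interval -0.58 to 0.16).

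Atp1b1, which encodes the beta subunit of the sodium pump, was the steadiest of the 8. It read 12.61, 12.47 and 12.41 in VDR-null duodenum, against 12.26, 12.47 and 12.42 in wild-type duodenum, a range over all arrays of 0.36, against a median of 0.43 over all tested genes. The difference of 0.11 ± 0.10 (SE) had an interval of -0.13 to 0.36 and a limma adjusted p of 0.718, and was -0.0074 without both replicate 1 arrays. The 6 arrays therefore bound any difference in this probe set more closely than in the exchangers, to at most 1.28-fold higher or 1.09-fold lower at the ends of that interval.

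**Figure D1:**
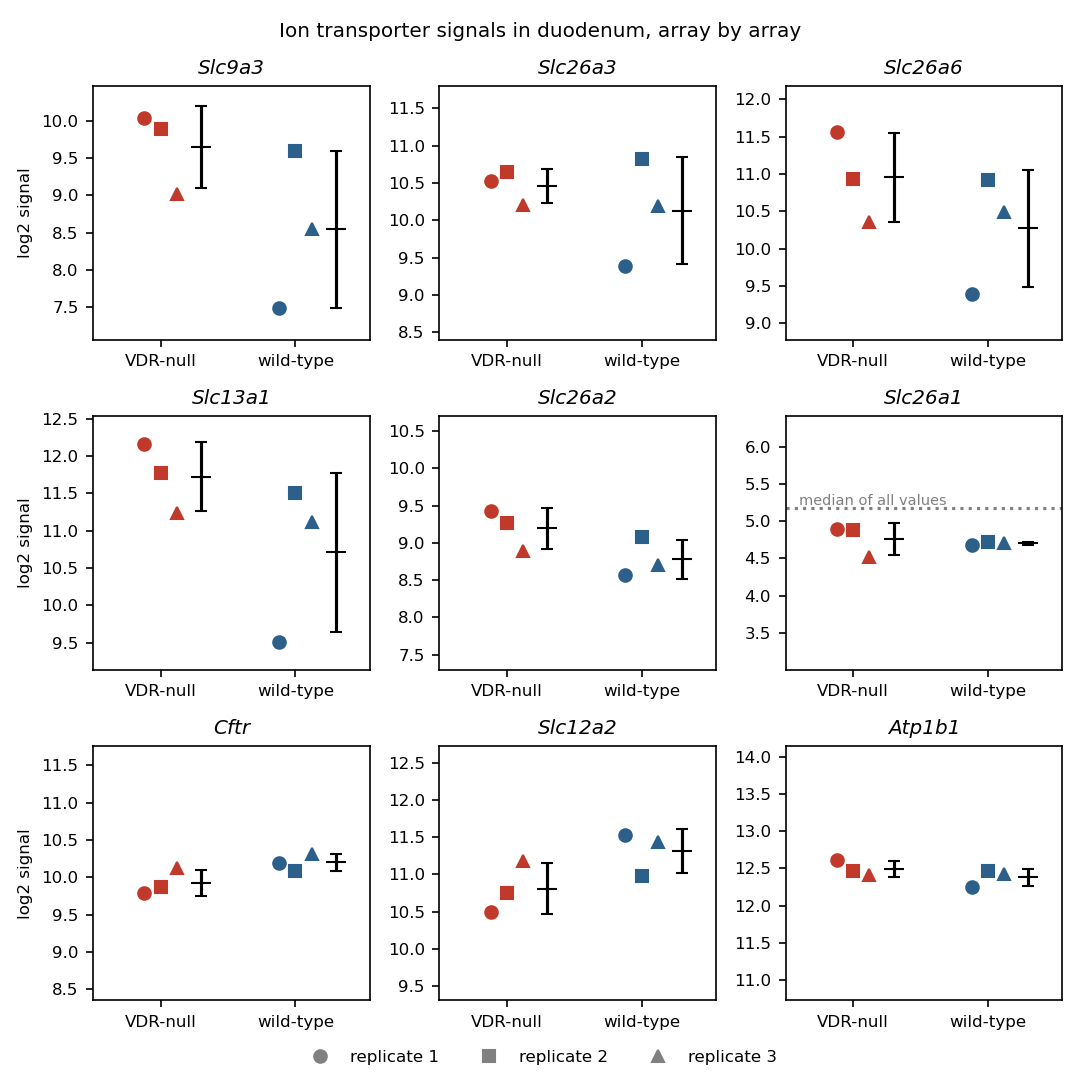
Log2 signal of each of the 9 genes (vertical axes, all spanning an equal number of log2 units) in VDR-null and wild-type duodenum; symbols are single arrays by replicate number, and the bar beside them is the mean with its SD (n = 3). Wild-type replicate 1 is the lowest array in 6 of the 8 tested genes, and Slc26a1 lies below the median of all values, drawn as a dotted line at 5.17.

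Read across arrays, a replicate 1 array stood at an end for each of the 8 tested transporters, and for most both did. Values thus varied within as well as between the genotypes. The exceptions to both were Cftr, highest on wild-type replicate 3, and Slc26a3, highest on wild-type replicate 2. Wild-type replicate 1 was the lowest array for 6 of the 8, which are those that averaged higher in VDR-null duodenum, and the highest for 1, Slc12a2. VDR-null replicate 1 was the highest for 5 and the lowest for 2, Slc12a2 and Cftr. In deviations from the mean of the 6 arrays, VDR-null replicate 1 lay at 0.95 for Slc13a1 and at -0.56 for Slc12a2. Wild-type replicate 1 lay at -1.71 and 0.47 for the same genes. The spread was uneven: Slc9a3, Slc13a1 and Slc26a6 ranged over more than 2 log2 units across arrays, while Cftr ranged over 0.52.

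Markers of villus and crypt moved with these genes. All 11 brush border structure genes on the list, such as villin (Vil1), averaged higher in VDR-null duodenum, with a median difference of 0.51 and 0 past the limma threshold; the list's mean log2 signal ranged from 9.66 to 10.5 on VDR-null and from 8.98 to 9.85 on wild-type arrays. All 13 villus digestion genes, such as sucrase-isomaltase (Sis), averaged higher too, with list means of 10.5 to 11.6 on VDR-null and 9.10 to 10.8 on wild-type arrays. Of 11 tested crypt genes, among them the stem cell receptor Lgr5 and the proliferation marker Mki67, 11 averaged lower, with list means of 8.80 to 9.34 on VDR-null and 9.11 to 9.60 on wild-type arrays. The villus lists had VDR-null replicate 1 as the highest and wild-type replicate 1 as the lowest array, and the crypt list the opposite. With all arrays the median difference was 0.51 for brush border, 0.66 for villus digestion and -0.33 for crypt genes. Without both replicate 1 arrays these medians were 0.10, -0.073 and -0.10. In a fit that included the brush border list mean of each array, the difference was 0.15 for Slc9a3, 0.034 for Slc13a1 and 0.12 for Slc26a2. It was -0.17 for Cftr and -0.16 for Slc12a2, and turned to -0.23 for Slc26a3, -0.19 for Slc26a6 and -0.021 for Atp1b1. The list mean was taken from the same arrays and orders them as the first principal component does, so this fit is no independent check either.

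Markers of the wall and of neighbouring tissue differed as well, and their part in the transporter values was not tested. All 8 smooth muscle genes, such as Acta2, averaged lower, with list means of 9.94 to 10.0 on VDR-null and 10.0 to 10.6 on wild-type arrays. All 5 tested genes of Brunner glands and stomach averaged lower, with list means of 5.79 to 6.54 on VDR-null and 6.40 to 7.64 on wild-type arrays; Gkn1, Gkn2 and Muc5ac were too dim to be tested. Of the 7 pancreatic acinar genes with a probe set, 3 were tested and averaged higher, with list means of 6.33 to 9.81 on VDR-null and 5.87 to 6.42 on wild-type arrays, the top value belonging to VDR-null replicate 3. Immune markers had 5 of 7 higher, with list means of 7.90 to 8.39 on VDR-null and 7.53 to 8.40 on wild-type arrays. Median differences were -0.37 for smooth muscle, -1.06 for Brunner glands and stomach, 1.87 for pancreatic acinar and 0.37 for immune genes. Without both replicate 1 arrays they were -0.28, -0.88, 2.34 and 0.19. That fit keeps VDR-null replicates 2 and 3, whose acinar list means were 6.33 and 9.81.

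**Figure D2:**
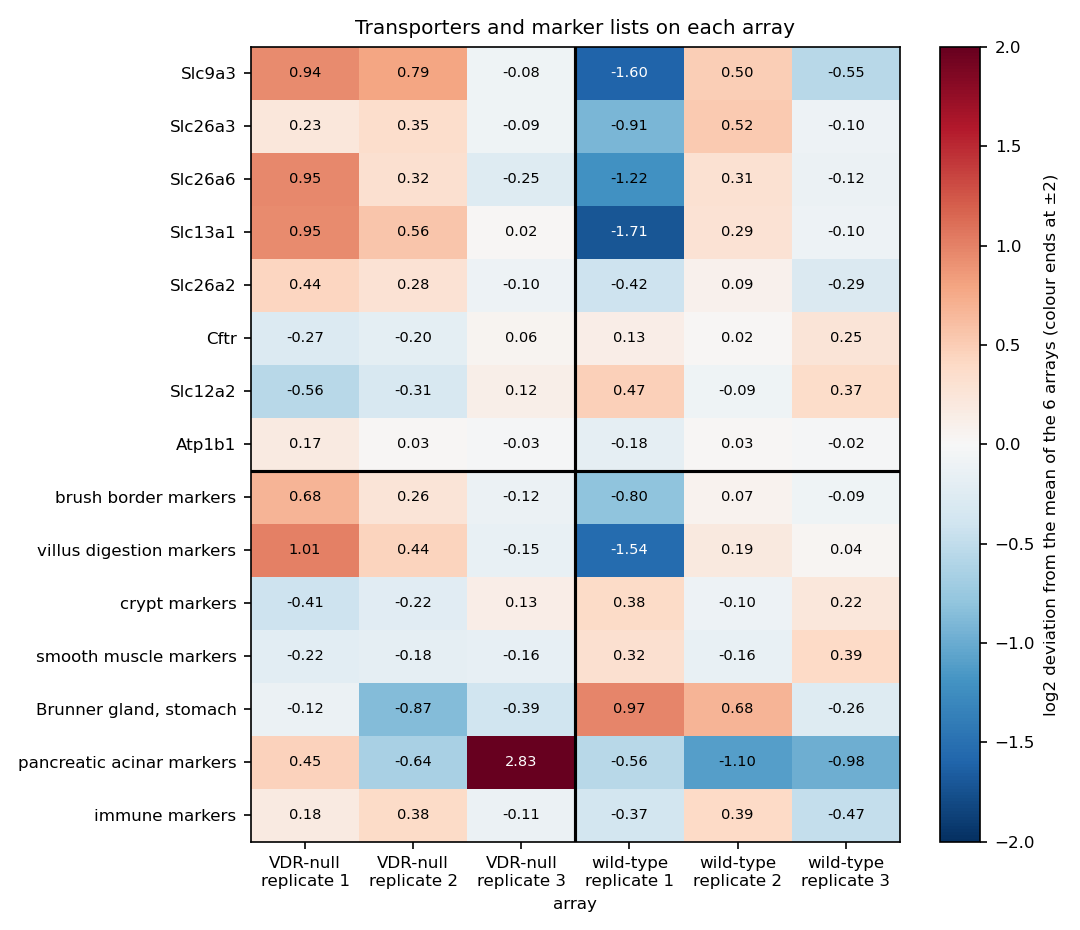
Deviation of each array (columns, VDR-null left) from the mean of the 6 arrays, in log2 units, for the 8 tested transporters (upper rows) and for the means of 7 marker lists (lower rows). Slc9a3, Slc13a1 and Slc26a6 carry their lowest value on wild-type replicate 1, as do the brush border and villus digestion lists, while Slc12a2 and the crypt list are highest there.

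**Figure D3:**
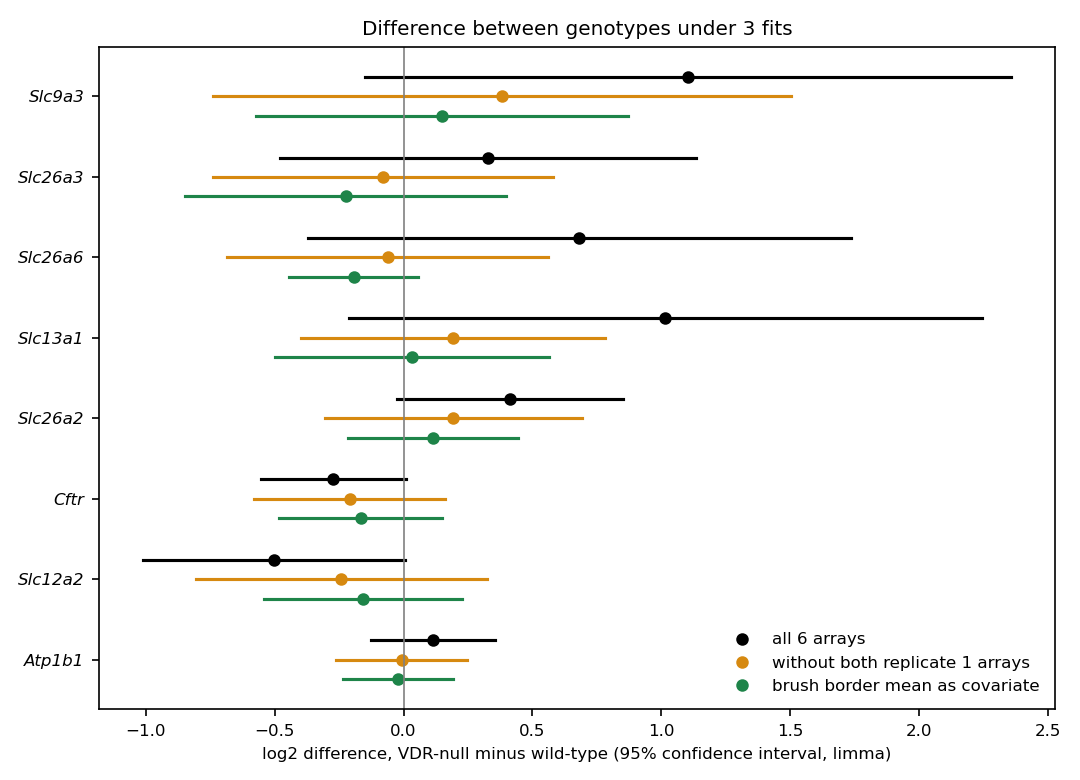
Log2 difference, VDR-null minus wild-type, of the 8 tested transporters with 95% confidence intervals from limma, for all 6 arrays, without both replicate 1 arrays, and with the list mean of brush border genes added as a covariate. Every interval drawn includes 0, and the estimate for Slc13a1 moves to 0.19 and 0.034 in the 2 alternative fits, against 1.02 with all arrays.

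For each tested transporter the genes with the most similar array profile were found by the root mean square difference of centred log2 signals over the 6 arrays. Adh4 was the closest to Slc9a3 (0.047 log2 units), Clec2h to Slc13a1 (0.083), Agmo to Slc26a6 (0.062), Asb13 to Slc26a2 (0.027) and Ank to Slc26a3 (0.14). The second closest were Cyp2c68 for Slc9a3 (0.17), Sult1b1 for Slc13a1 (0.11), Cdr2 for Slc26a6 (0.078), Dqx1 for Slc26a2 (0.030) and Gstm6 for Slc26a3 (0.14). Slc12a2 was closest to Abi3bp (0.058) and Cdca7 (0.062), Cftr to Sorcs2 (0.021) and Ran (0.024), and Atp1b1 to Rhot2 (0.013) and Uqcrh (0.015). Among the transporters themselves 3 pairs were each other's nearest: Slc9a3 with Slc13a1 (0.23), Slc26a2 with Atp1b1 (0.21) and Cftr with Slc12a2 (0.20). The smaller a gene's own spread, the smaller such a distance can be, so the distances do not rank the likeness of one pair against another's.

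Around these 9 genes, 93 further genes of ion and water transport in 8 role lists gave 57 tested genes, 35 higher and 22 lower in VDR-null duodenum, with a median difference of 0.076 (0.029 without both replicate 1 arrays). None passed the limma threshold, and 5 had an unadjusted p under 0.05 (8.77%, against 5.23% of all tested genes), 2 higher and 3 lower. The arrays did not overlap in 8 of the 57 (14.0%, against 11.1%).

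Partners and regulators of the exchangers averaged higher in 8 of 10 cases (median 0.41, and 0.065 without both replicate 1 arrays). Guca2b, encoding uroguanylin, a gut peptide that curbs NHE3 and promotes secretion, read 12.78, 12.45 and 12.32 in VDR-null duodenum, against 11.34, 12.22 and 12.18 in wild-type duodenum. Its difference was 0.60 ± 0.25 (SE; limma adjusted p = 0.683), 0.31 with wild-type replicate 1 left out, and 0.18 without both replicate 1 arrays. Chp1, a calcium-binding partner of sodium-hydrogen exchangers, differed by 0.29 ± 0.13, 0.18 with VDR-null replicate 1 left out, and 0.15 in the fit lacking both replicate 1 arrays.

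Of 3 tested sodium entry genes, Scnn1a, the alpha subunit of the epithelial sodium channel, was named for the smallest p. Its difference did not shrink in the fits that shrank those of the exchangers, but neither fit is an independent check. Scnn1a read 6.97, 6.71 and 7.02 in VDR-null duodenum, against 6.63, 6.56 and 6.36 in wild-type duodenum, with no overlap. Its difference of 0.39 ± 0.12 (SE; limma adjusted p = 0.683) was 0.41 without both replicate 1 arrays, and 0.45 beside the brush border covariate. The beta and gamma subunits, Scnn1b and Scnn1g, were too dim to be tested. Slc9a2, the exchanger NHE2, differed by 0.59 ± 0.34 (SE), 0.35 with VDR-null replicate 1 left out, 0.34 with wild-type replicate 1 left out, 0.098 without both replicate 1 arrays and -0.040 beside that covariate.

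In bicarbonate transport 5 of 7 tested genes averaged higher (median 0.076, but -0.083 without both replicate 1 arrays), with the bicarbonate cotransporter Slc4a5 at 0.35 ± 0.16 (SE) and the anion exchanger Slc4a3 at -0.16 ± 0.082. Slc4a5 differed by 0.22 with wild-type replicate 1 left out, and by 0.12 in that smaller fit. Among carbonic anhydrases, which supply bicarbonate and protons to the exchangers, 5 of 7 averaged higher (median 0.22, and 0.039 in that smaller fit), with Car13 at 0.49 ± 0.24 and Car4 at 0.52 ± 0.29. Car13 differed by 0.31 with VDR-null replicate 1 left out, by 0.28 with wild-type replicate 1 left out, and by 0.11 in the smaller fit. Car4 differed by 0.20 with VDR-null replicate 1 left out, and by 0.34 in the smaller fit. For sulfate handling 4 of 5 averaged higher (median 0.11, and 0.060 in that smaller fit), with Papss2, which makes the sulfate donor PAPS, at 0.64 ± 0.38 and Bpnt1, a phosphatase of its breakdown product, at 0.55 ± 0.26. Papss2 differed by 0.17 and Bpnt1 by 0.28 without wild-type replicate 1. Without both replicate 1 arrays Papss2 differed by 0.060 and Bpnt1 by 0.15. Of 5 tested water channels 3 averaged higher (median 0.40, but -0.091 without both replicate 1 arrays), with Aqp11 at 0.44 ± 0.20 and Aqp4 at -0.43 ± 0.30. Aqp11 differed by 0.29 with either of these arrays left out, and by 0.13 in the smaller fit. For Aqp4 the difference was -0.15 with wild-type replicate 1 left out, -0.23 when VDR-null replicate 2 was dropped, -0.69 when VDR-null replicate 3 was dropped, and -0.091 in the smaller fit. The limma adjusted p was 0.687 for Aqp4 and 0.683 for the others.

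Chloride secretion genes other than Cftr and Slc12a2 averaged lower in 8 of 13 cases (median -0.11, but 0.030 without both replicate 1 arrays). Ano1, a calcium-activated chloride channel also known as a marker of the pacemaker cells of the gut wall, read 6.93, 6.89 and 6.94 in VDR-null duodenum, against 7.36, 7.16 and 7.46 in wild-type duodenum. The groups did not overlap, and its difference was -0.41 ± 0.10 (SE; limma adjusted p = 0.683) and -0.40 without both replicate 1 arrays, beside the smooth muscle list given above. Ptger4, the prostaglandin E2 receptor EP4, differed by 0.28 ± 0.10 and did not overlap either; without both replicate 1 arrays it differed by 0.16, and beside the brush border covariate by 0.15. Among pump subunits and their regulators 3 of 7 averaged higher (median -0.22, and -0.14 without both replicate 1 arrays). Fxyd6, a regulator of the sodium pump, differed by -0.36 ± 0.10 and Atp1b2, the pump's beta 2 subunit known from nervous tissue, by -0.22 ± 0.088, each without overlap and each with a limma adjusted p of 0.683. Without both replicate 1 arrays Fxyd6 differed by -0.40 and Atp1b2 by -0.19. Beside the brush border covariate they differed by -0.42 and -0.17.

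**Figure D4:**
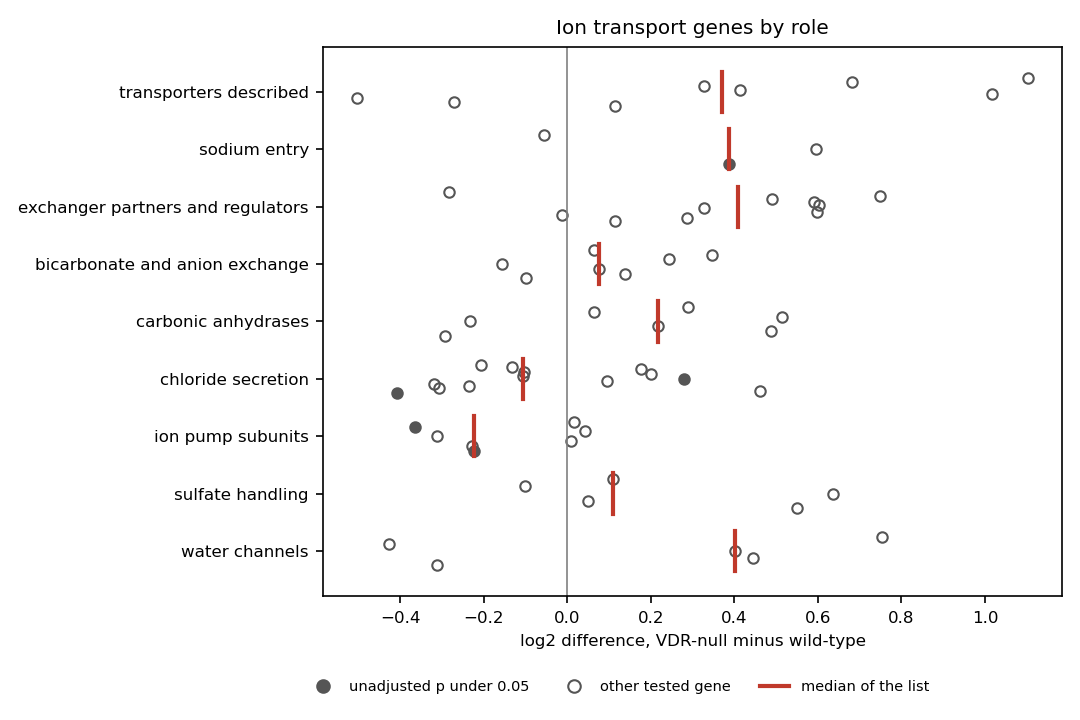
Log2 difference, VDR-null minus wild-type, of each tested gene (points) in the transporter set and in 8 role lists, with the median of each list as a red line; filled points have an unadjusted p under 0.05. Filled points are Scnn1a, Ano1, Ptger4, Fxyd6 and Atp1b2, and none of the described transporters.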

How the data were processed

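Each deposited value is a log2 signal of 1 probe set on 1 array. Per the submitters' processing notes it was made with RMA (Affymetrix Expression Console, no version named); RMA corrects background, equalises the distributions of arrays (quantile normalization) and summarises probes, so a shift common to all genes would be removed. Of 41345 probe sets, 23521 were paired with 1 symbol, 1814 with several and 16010 with none. For a gene with several, the one with the highest mean was used. The test took the 13174 genes in which 3 or more arrays exceeded the median of all values, 5.17.

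The VDR-null and wild-type arrays were compared over all tested genes by limma 3.58.1 (R 4.3.3; lmFit and eBayes, two-sided, without covariates), with Benjamini-Hochberg adjustment and a threshold of 0.05. Intervals are 95% confidence intervals. The number of arrays limits the precision. Alternatives covered the filter, scaling, variance prior, array weights, replicate block, probe set choice, a brush border covariate and arrays left out.

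Members, gene lists and the naming rule were chosen with earlier results of these data known. Named were the members, Vdr, the 2 genes of smallest p in each role list and the 2 nearest profiles of each member; markers named with the lists, and genes in the closing section said to be so, were chosen after their values were seen. Motifs were searched in RefSeq windows of GRCm38.p6 with Python 3.11.15.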

Additional observations from a re-analysis of the deposited data

How the results depend on the processing

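Under the 17 alternatives limma called 0 genes over all tested genes, 0 of the 8 transporters and 0 of the wider lists. The number at an unadjusted p under 0.05 ran from 284 to 2718 over all genes and from 0 to 5 among the transporters. It was 4 of 8 without VDR-null replicate 3, where 1569 of all 13174 genes passed. With array weights it was also 4 of 8, where 2718 of all 13174 passed, against 689 in the main fit. Such counts thus rose over all genes as well as among the transporters, where the share was larger. The count of 5 came with 1 wild-type array left out, and the matching count over all genes is not shown here. The transporters were not tested as a set. Slc9a3, Slc26a2, Slc13a1, Cftr and Slc12a2 kept their direction in all 17. Several of these fits, such as those on the filter and the variance prior, reuse the same mean difference, so direction could not change in them. With the covariate Slc9a3 was 0.15 and Slc13a1 0.034. The number of transporters higher was 3 of 8, with the brush border covariate and without both replicate 1 arrays, and their median difference -0.089 and -0.035 in these fits; over the fits that left out 1 array it ran from 0.15 (without wild-type replicate 1) to 0.61 (without wild-type replicate 2), against 0.37 with all 6. Slc26a3 was -0.23 with the covariate, -0.078 without both replicate 1 arrays, and from -0.046 (without wild-type replicate 1) to 0.67 with 1 array left out. Slc26a6 was -0.19 and -0.062, and Atp1b1 -0.021 and -0.0074, with the covariate and without both replicate 1 arrays. The wider lists' median was 0.014 with the covariate and ran from 0.0043 (without VDR-null replicate 1) to 0.12 with 1 array left out. With the covariate Slc9a2 was -0.040, Papss2 -0.042 and Aqp4 0.061. The cause of these moves was not tested. The replicate block left 0 calls, with 338 genes at an unadjusted p under 0.05. Same-numbered arrays correlated at -0.62, 0.19 and -0.26 in their deviations from the group means, so the numbers were not taken to pair the samples.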

Other observations

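Genes around the transporters that are named here were chosen after their values were seen, and 0 of them had a limma adjusted p under 0.05. The potassium channel subunits that hold the driving force for chloride secretion averaged lower in VDR-null duodenum together with Slc12a2. Kcnq1 read 9.18, 9.48 and 9.91 in VDR-null duodenum, against 10.00, 9.50 and 10.02 in wild-type duodenum, and its partner Kcne3 read 9.49, 9.36 and 9.96 in VDR-null, against 10.05, 9.61 and 10.08 in wild-type. The calcium-activated channel Kcnn4 differed by -0.24 ± 0.25 (SE). For each of these channel genes the groups overlapped. Beside the brush border covariate the differences were 0.013 for Kcnq1, -0.071 for Kcne3 and 0.17 for Kcnn4. Without both replicate 1 arrays they were -0.068, -0.18 and 0.054, against -0.32, -0.31 and -0.24 with all arrays.

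The means of 2 scaffold genes of NHE3 differed in opposite directions, neither past the test: Slc9a3r1 (NHERF1) read 11.25, 10.56 and 10.13 in VDR-null duodenum, against 9.20, 10.32 and 10.17 in wild-type duodenum, while Slc9a3r2 (NHERF2) read 7.85, 8.20 and 8.35 in VDR-null, against 8.60, 8.28 and 8.38 in wild-type. Slc9a3r1 differed by 0.75, by 0.099 without both replicate 1 arrays and by 0.015 beside the brush border covariate. For Slc9a3r2 these differences were -0.28, -0.055 and -0.033. The uroguanylin receptor Gucy2c differed by 0.33 ± 0.16 (SE) and its downstream kinase Prkg2 by 0.59 ± 0.27, whereas guanylin itself, Guca2a, differed by -0.013 ± 0.16. Without both replicate 1 arrays Gucy2c differed by 0.11, Prkg2 by 0.17 and Guca2a by 0.031. Beside the brush border covariate they differed by 0.058, 0.093 and 0.079. Carbonic anhydrase 2, Car2, varied more within genotypes than between them, with 9.29, 8.88 and 7.51 in VDR-null duodenum, against 7.12, 9.16 and 8.74 in wild-type duodenum. The glycerol and water channel Aqp7 stood apart on 1 array, with 9.25 on VDR-null replicate 1, against 6.25 to 7.31 on the other 5.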
